A study of Homo sapiens with 6 samples.

Results

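The alpha-arrestin genes TXNIP, ARRDC1, ARRDC2, ARRDC3 and ARRDC4 were followed in ARPE-19 cells given SRPIN803. These 5 genes, of 19775 measured, had 8 of the 54613 probe sets that are not controls, namely those whose annotation named exactly 1 gene and that gene was in the family. The members were chosen by the measured differences of TXNIP and ARRDC3 between SRPIN803 and DMSO on these same arrays, so their differences in that contrast are given as a description, with no p-value, and a count of their calls supports nothing. ARPE-19 is an established human line derived from retinal pigment epithelium, and SRPIN803 is known as an inhibitor of the splicing factor kinase SRPK1 and of protein kinase CK2. The tested cells, 3 arrays, were exposed to 10 µM SRPIN803 for 4 h, and the other 3 arrays came from cells kept with 0.1% DMSO, the solvent, for the same time. Both groups grew in medium with 10% serum, and only 1 dose and 1 time were measured. The labels do not say whether replicates were separate cultures, so the spread between them may be technical.

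Alpha-arrestins are adaptor proteins with an arrestin fold, related to the beta-arrestins that bind activated receptors. Most carry PPxY motifs in their tails, by which they bring ubiquitin ligases of the NEDD4 family to membrane proteins that are then internalised. TXNIP also binds thioredoxin, and with ARRDC4 it restrains glucose uptake. Both are known targets of the glucose-sensing factor MondoA, which with its partner MLX binds pairs of CACGNG half-sites called carbohydrate response elements, and TXNIP is also known as a target of FOXO factors.

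The promoters of the 3 genes that were higher after SRPIN803 are shown because they differ in these motifs. Each run holds the 250 bases before a RefSeq gene start (GRCh38.p14), 5′ to 3′ on the gene's strand, and capitals mark CACGNG half-sites on either strand and the FOXO motif GTAAACA or its reverse complement TGTTTAC. TXNIP lies at chr1:145996580-145996829 on the minus strand, ARRDC3 (the second of 2 starts) at chr5:91380098-91380347 on the minus strand, and ARRDC4 at chr15:97960453-97960702 on the plus strand.
TXNIP: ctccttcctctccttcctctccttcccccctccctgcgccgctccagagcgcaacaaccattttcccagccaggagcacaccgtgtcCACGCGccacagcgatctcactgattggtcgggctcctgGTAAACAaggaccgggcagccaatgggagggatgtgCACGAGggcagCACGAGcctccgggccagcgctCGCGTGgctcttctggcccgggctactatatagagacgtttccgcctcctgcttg
ARRDC3: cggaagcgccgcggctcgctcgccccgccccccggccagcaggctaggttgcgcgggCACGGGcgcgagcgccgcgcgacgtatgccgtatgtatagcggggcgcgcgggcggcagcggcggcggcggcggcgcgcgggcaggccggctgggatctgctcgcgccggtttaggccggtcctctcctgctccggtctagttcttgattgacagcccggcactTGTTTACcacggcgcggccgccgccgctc
ARRDC4: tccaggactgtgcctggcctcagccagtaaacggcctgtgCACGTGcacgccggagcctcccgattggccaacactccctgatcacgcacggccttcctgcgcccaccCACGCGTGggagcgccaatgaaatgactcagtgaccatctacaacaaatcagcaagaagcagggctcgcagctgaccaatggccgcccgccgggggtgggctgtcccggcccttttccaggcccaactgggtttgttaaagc
The TXNIP run held 4 half-sites, and those at 88 and 77 bases before the start formed a pair with 5 bases between them. Such a pair, with either half-site in either orientation, was present in 23 of 35114 windows of this length in the reference table (0.0655%), whereas a single half-site was present in 26.7%. TXNIP also held GTAAACA 124 bases before the start, between its first half-site and the pair. ARRDC4 held 3 half-sites, of which CACGCG and CGCGTG overlap, and no pair with that spacing. The ARRDC3 run held 1 half-site and the letters TGTTTAC 29 bases before the start, a motif present on either strand in 2.98% of windows. The other start of ARRDC3, the second start of TXNIP and the single window of ARRDC1 held neither motif. Of the 2 windows of ARRDC2, the upstream one held 3 half-sites and the other none. These matches describe letters and not bound sites.

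Levels are RMA values on a log2 scale, where a difference of 1 is a doubling, and levels of different probe sets cannot be set against each other. Array medians lay between 5.25 and 5.27, and 2 arrays of 1 group correlated at 0.9957 to 0.9977 over probe sets, against 0.9940 to 0.9961 for arrays of different groups. The median level over all probe sets was 5.26. Each marker was read by its gene's brightest probe set, so its place against this median is only a rough guide. Of the markers of retinal pigment epithelium, 9 of 12 lay above it, with the transcription factor genes OTX2 and MITF at means of 10.47 and 10.22, whereas the visual cycle genes RPE65 and LRAT (2.33 and 2.83) and the pigment gene TYRP1 (3.21) lay below it. Above the median were 1 of 5 photoreceptor, 1 of 5 endothelial, 1 of 4 immune, 2 of 4 epithelial and 4 of 5 mesenchymal markers. The mean over the immune markers ran from 4.30 to 4.47 on SRPIN803 arrays and from 4.22 to 4.25 on DMSO arrays, with 0 of 4 called and the defining marker PTPRC at 2.82. The mean over the pigment epithelium markers ran from 5.91 to 6.01 on SRPIN803 arrays and from 5.86 to 5.90 on DMSO arrays, with MITF called higher (0.35 ± 0.07, limma's adjusted p = 0.0312) but with any 1 array left out not called (up to 0.101). The part of either in the results below was not tested, and in RNA from whole cultures a change in the share of a cell type and a change in RNA per cell cannot be told apart.

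TXNIP, ARRDC3 and ARRDC4 were higher on every SRPIN803 array than on any DMSO array, and ARRDC1 and ARRDC2 were not. By linear fold the brightest TXNIP probe set was 7.16 times its DMSO level (95% interval 6.25 to 8.19), ARRDC3 4.46 times (3.97 to 5.02) and ARRDC4 2.12 times (1.88 to 2.39). Of the 8 probe sets, 5 were called higher and 0 lower at limma's adjusted p under 0.05 over all probe sets, and 3 were not called. Over the whole array 1214 probe sets were called (2.22%), 1.19% higher and 1.03% lower. The same 5 probe sets had every SRPIN803 array above every DMSO array, which held for 11.3% of all probe sets. Nothing is read from these counts, because this contrast chose the family. No filter on level was used, so all 8 were in the fit, 7 of them above the median level. The median log2 difference over the 8 was 1.37, and over all probe sets it was 0.0054.

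**Figure D1:**
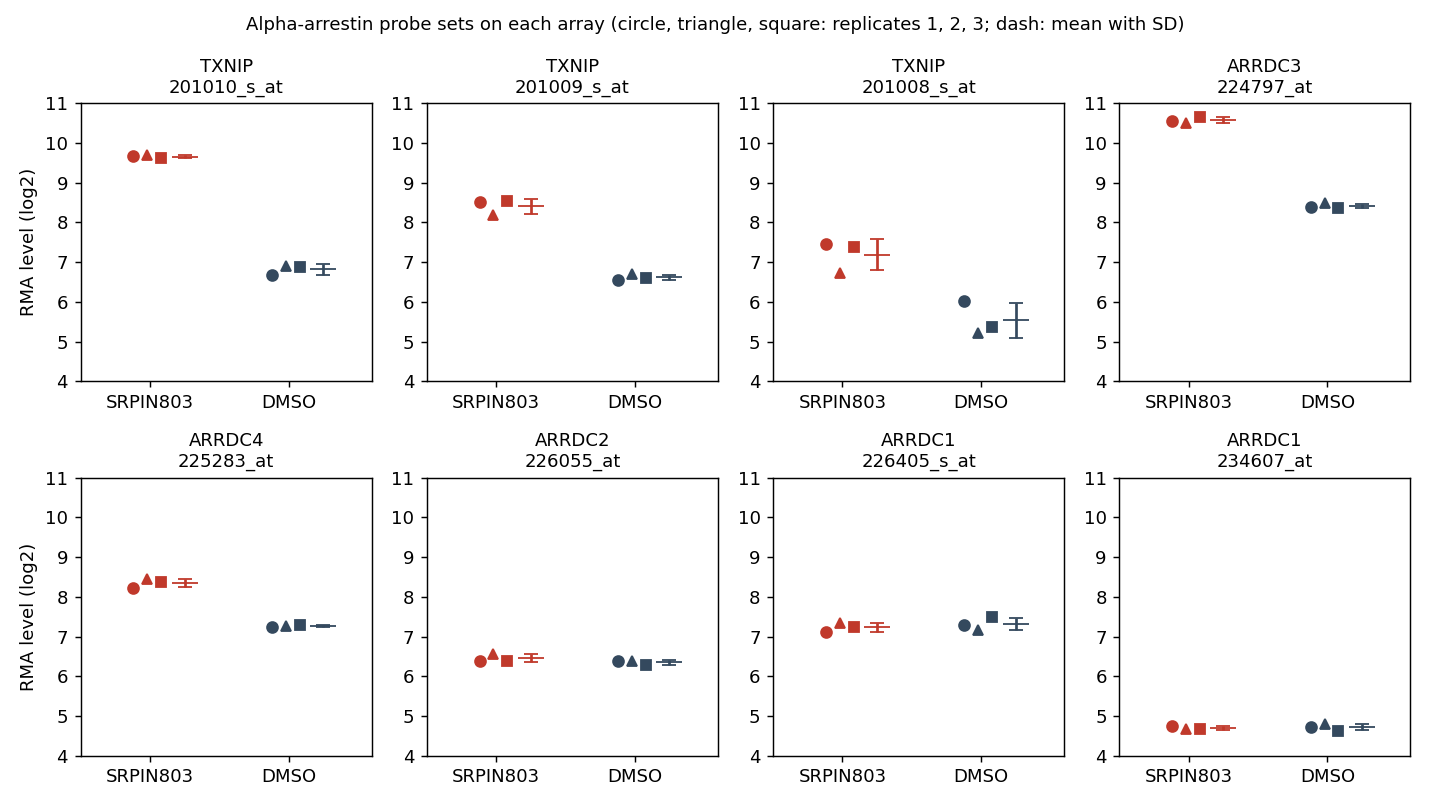
RMA levels (log2, vertical axis) of the 8 alpha-arrestin probe sets on each array, SRPIN803 left and DMSO right in every panel, with symbols for replicates 1 to 3 and a dash for the mean with its SD. The groups stand apart in the 3 TXNIP panels and in ARRDC3 and ARRDC4, and overlap in ARRDC2 and both ARRDC1 panels.

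TXNIP, the thioredoxin-binding member, had 3 probe sets, all with the suffix that marks probes shared by several transcripts. Probe set 201010_s_at read 9.67, 9.69 and 9.62 on the SRPIN803 arrays, against 6.67, 6.90 and 6.89 on the DMSO arrays. The 3 SRPIN803 values lay within 0.07 of each other, and the lowest of them was 2.71 above the highest DMSO value. Its log2 difference was 2.84 ± 0.08 (limma's standard error, n = 3 each), the third highest of all 54613 probe sets.

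The other TXNIP probe sets were higher too, by less. Probe set 201009_s_at read 8.50, 8.19 and 8.53 after SRPIN803, against 6.55, 6.69 and 6.60 in DMSO, a log2 difference of 1.79 ± 0.10 and the 7th highest. Probe set 201008_s_at read 7.45, 6.74 and 7.38 after SRPIN803, against 6.03, 5.21 and 5.36 in DMSO, a log2 difference of 1.65 ± 0.25 and the 12th highest. In the dimmest one, 201008_s_at, SRPIN803 replicate 2 was the low treated array and DMSO replicate 1 the high solvent array, and 0.70 still separated the groups. Its spread within groups was larger than that of 99.6% of probe sets, and it was not called without SRPIN803 replicate 1 (log2 difference 1.52) or 3 (1.56), or without DMSO replicate 2 (1.49) or 3 (1.57). The offset between 201010_s_at and 201009_s_at was 1.16, 1.49 and 1.09 on SRPIN803 arrays and 0.11, 0.21 and 0.29 on DMSO arrays, so these probe sets changed unequally. The offset between 201009_s_at and 201008_s_at was 1.06, 1.46 and 1.15 on SRPIN803 arrays and 0.52, 1.48 and 1.24 on DMSO arrays, which overlap. The fold given for TXNIP therefore depends on whether 201010_s_at or one of the others is read.

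ARRDC3, an adaptor known to act on beta-adrenergic receptors and on integrin beta 4, was measured by probe set 224797_at. It read 10.56, 10.51 and 10.65 after SRPIN803, against 8.38, 8.49 and 8.38 in DMSO. The groups were 2.02 apart at their nearest arrays, and the SD was 0.07 over SRPIN803 arrays and 0.06 over DMSO arrays. Its log2 difference was 2.16 ± 0.07, the 4th highest of all probe sets, directly after TXNIP.

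ARRDC4, another member known to restrain glucose uptake, was measured by probe set 225283_at. It read 8.23, 8.44 and 8.37 after SRPIN803, against 7.25, 7.27 and 7.28 in DMSO. The DMSO arrays lay within 0.03 of each other, and the nearest arrays of the groups were 0.95 apart. Its log2 difference was 1.08 ± 0.08, the 38th highest among probe sets. Counted by gene, with the brightest probe set standing for each, TXNIP, ARRDC3 and ARRDC4 were in places 3, 4 and 21 of 19775.

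ARRDC2, a less studied member, had overlapping groups. Probe set 226055_at read 6.39, 6.57 and 6.40 after SRPIN803, against 6.38, 6.39 and 6.28 in DMSO, a log2 difference of 0.10 ± 0.08 with a 95% interval of -0.08 to 0.28. SRPIN803 replicate 1 lay within the range of the DMSO arrays, replicate 3 just above it (6.397 against 6.395), and replicate 2 further above it.

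ARRDC1, which recruits the budding machinery to the plasma membrane and forms vesicles there, also had overlapping groups in both of its probe sets. Probe set 226405_s_at read 7.12, 7.35 and 7.23 after SRPIN803, against 7.29, 7.17 and 7.49 in DMSO, a log2 difference of -0.09 ± 0.10 (95% interval -0.32 to 0.15). Probe set 234607_at, which lay below the median level, read 4.74, 4.67 and 4.67 after SRPIN803, against 4.73, 4.79 and 4.63 in DMSO, a log2 difference of -0.02 ± 0.07 (-0.18 to 0.15).

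**Figure D2:**
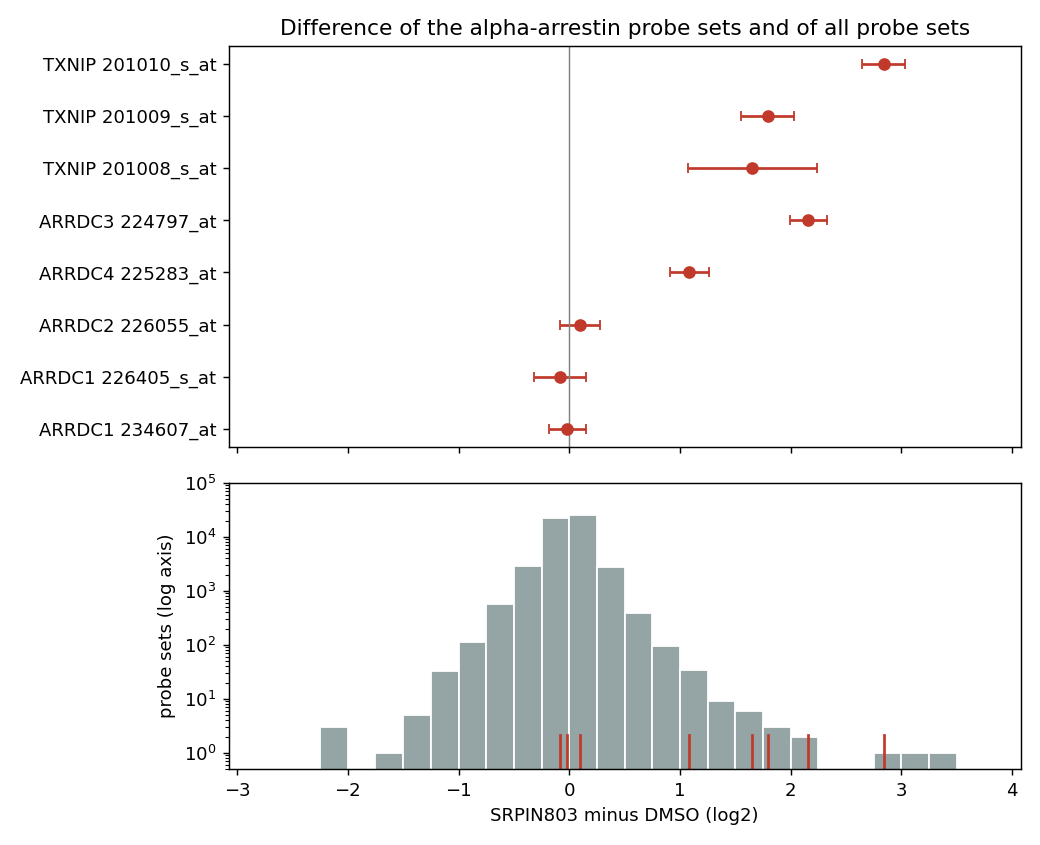
Upper panel: log2 difference, SRPIN803 minus DMSO, of each alpha-arrestin probe set with its 95% interval. Lower panel: number of probe sets per 0.25 of that difference over all 54613, on a log axis, with red marks at the 8 family values, 5 of which lie in the right tail and 3 near 0.

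Antisense neighbours named after 2 of the genes were looked at after the values were seen. ARRDC3-AS1 read 5.79, 5.72 and 5.57 after SRPIN803, against 5.79, 5.72 and 5.55 in DMSO, so it did not move with ARRDC3 on these arrays (log2 difference 0.0047 ± 0.093, 95% interval -0.21 to 0.22). ARRDC1-AS1 read 6.48, 6.55 and 6.42 after SRPIN803, against 6.17, 6.28 and 6.23 in DMSO, with no overlap but below the call (0.26 ± 0.07, limma's adjusted p = 0.127 over all probe sets).

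Genes linked to alpha-arrestins were tested over all genes, 1 probe set each, where 5.84% were called, 3.46% higher and 2.37% lower. Of 102 such genes in 10 lists, 94 had a probe set naming them alone and the rest were not analysed here. Some listed genes share only a regulator or a gene family with a known partner, as other MondoA targets and many SLC2A transporters do. Of the 94, 81 lay above the median level of all probe sets, and the lists were written with earlier results of these data known. Called were 3 higher and 8 lower (11.7%), a share from which no excess is read. The median log2 difference of the 94 was 0.0040, against 0.019 over all genes. The count fell to between 4 and 7 with 1 array left out, all of them among the 11, so some of these calls rest on all 6 arrays.

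Of 11 factors that control TXNIP, 1 was called higher and 1 lower, with a median of -0.06. MLX, the obligate partner of MondoA, fell to 8.84, 8.87 and 8.92 on SRPIN803 arrays, against 9.26, 9.35 and 9.29 on DMSO arrays (-0.42 ± 0.06, limma's adjusted p = 0.00889). All 6 MLX probe sets had lower means, by log2 differences of -0.46 to -0.07, and the gene was called with any 1 array left out. MondoA itself, MLXIP, was at -0.11 ± 0.06 and not called (0.356), named here after its values were seen. FOXO1 rose by 0.35 ± 0.07 (limma's adjusted p = 0.0324), with 7.47, 7.55 and 7.45 after SRPIN803, against 7.08, 7.26 and 7.09 in DMSO. It was not called without DMSO replicate 1 or 3 or any 1 SRPIN803 array (up to 0.133), nor as the mean of its probe sets (0.18, adjusted p = 0.227), since its dimmer ones were at 0.10 and 0.09.

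Among 12 other MondoA and ChREBP targets 1 was called, and it was lower, with a median of -0.08. Hexokinase HK2, which traps glucose in the cell, read 7.14, 7.31 and 7.40 after SRPIN803, against 8.30, 8.33 and 8.33 in DMSO (-1.04 ± 0.08, limma's adjusted p = 0.000855). Its 3 probe sets were lower by log2 differences of -1.04 to -0.65. HK2 thus changed in the opposite direction to TXNIP and ARRDC4, and was called with any 1 array left out. Of 7 subunits of AMPK, the energy-sensing kinase that phosphorylates TXNIP, PRKAB1 was lower (-0.36 ± 0.08, limma's adjusted p = 0.0483), and was not called in any of the 6 fits without 1 array (up to 0.171), with arrays centred on 1 median (0.0508) or as the mean of its probe sets (-0.30, adjusted p = 0.102).

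Partners of TXNIP in redox control were mostly flat. Of 11 genes listed with the thioredoxin and peroxiredoxin system 1 was lower and 0 higher, with a median of 0.0043. Thioredoxin itself, TXN, was at 0.03 ± 0.05 (limma's adjusted p = 0.826, named after its values were seen). The exception was MAP3K5, the stress kinase ASK1 that reduced thioredoxin holds inactive, which read 6.32, 6.29 and 6.21 after SRPIN803, against 6.91, 6.85 and 6.90 in DMSO (-0.61 ± 0.06, limma's adjusted p = 0.00254). Its other probe set was at -0.68 ± 0.10, and the call held with any 1 array left out. Of 7 genes of the NLRP3 inflammasome, which TXNIP is known to bind, the cytokine gene IL1B was lower (-0.43 ± 0.08, limma's adjusted p = 0.0216) and 0 higher. IL1B was called without SRPIN803 replicate 3 and not without any other single array (up to 0.0922), and NLRP3 itself lay below the median level.

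Of 12 glucose transporters of the SLC2A family 2 were higher and 1 lower, with a median of 0.0085. SLC2A6, a transporter of the lysosomal membrane, read 8.16, 7.90 and 8.25 after SRPIN803, against 8.87, 8.83 and 8.83 in DMSO (-0.74 ± 0.09, limma's adjusted p = 0.00602), and was called with any 1 array left out. SLC2A12 read 7.89, 7.74 and 7.97 after SRPIN803, against 7.40, 7.29 and 7.26 in DMSO (0.55 ± 0.08, adjusted p = 0.00908). It was not called without DMSO replicate 3 (0.0507) or as the mean of its probe sets (0.41, adjusted p = 0.197). SLC2A10 rose by 0.39 ± 0.08 (adjusted p = 0.0295) and, of the 6 fits without 1 array, kept the call only without SRPIN803 replicate 1 (up to 0.117). The transporter that TXNIP is best known to remove from the membrane, SLC2A1, was at -0.03 ± 0.07 (adjusted p = 0.845, 95% interval -0.19 to 0.12), named after its values were seen.

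Among 11 NEDD4-family ubiquitin ligases and adaptors 2 were lower and 0 higher, with a median of -0.0023. SMURF2 read 11.26, 10.94 and 11.13 after SRPIN803, against 11.60, 11.82 and 11.59 in DMSO (-0.56 ± 0.10, limma's adjusted p = 0.0237). All 4 of its probe sets were lower, by -0.79 to -0.56, and the brightest, which stands for the gene here, was called only without SRPIN803 replicate 1 when 1 array was left out (up to 0.0820). Its dimmer probe sets 227489_at (-0.69 ± 0.07) and 232020_at (-0.79 ± 0.08) were called over all probe sets, with adjusted p = 0.00489 and 0.00521. SMURF1 was at -0.35 ± 0.07 (adjusted p = 0.0310). Of the 6 fits without 1 array it kept the call only without SRPIN803 replicate 2 (up to 0.125) and lost it as the mean of its probe sets (-0.13, adjusted p = 0.271). That mean weighs equally its other probe sets, with levels of 3.60 to 5.23, which all lay below the median level of all probe sets.

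The remaining lists held no called gene by limma. Of 6 other arrestin-fold genes the smallest p was that of the retromer gene VPS26B (-0.20 ± 0.06, adjusted p = 0.105), of 8 ESCRT and budding genes that of STAM2 (0.23 ± 0.07, adjusted p = 0.127), and of 9 receptors and cargo that of EGFR (-0.32 ± 0.08, adjusted p = 0.0656). At an unadjusted p under 0.05 they counted 2 of 6, 1 of 8 and 3 of 9 genes, in that order, against 19.5% of all genes. VPS26B and EGFR were called when only genes above the median level were tested (0.0417 and 0.0282), and STAM2 and EGFR with a variance trend and robust fit together (0.0395 and 0.00741). As the mean of a gene's probe sets none of them was called by limma. There VPS26B was at -0.11 (adjusted p = 0.394), STAM2 at 0.13 (adjusted p = 0.369) and EGFR at -0.11 (adjusted p = 0.376). The EGFR mean weighs bright and dim probe sets equally. Its brightest, 224999_at, 201983_s_at and 201984_s_at, were at -0.32, -0.48 and -0.22, none called over all probe sets. The dimmer ones lay between -0.13 and 0.12.

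**Figure D3:**
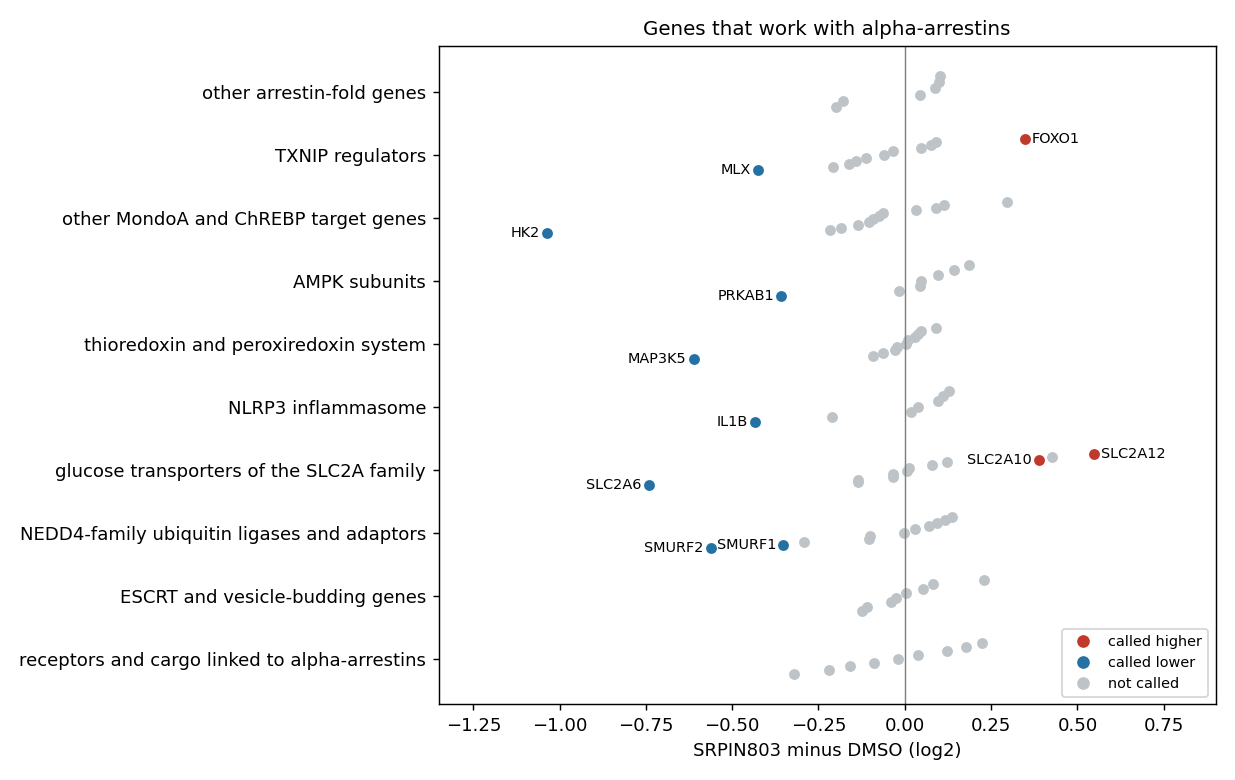
Log2 difference, SRPIN803 minus DMSO, of the 94 listed genes linked to alpha-arrestins, 1 row per list, with red for called higher, blue for called lower and grey for not called. Named points are the 11 called genes, from HK2 at -1.04 to SLC2A12 at 0.55.

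Genes that share the promoter motifs of the family were described in the same fit, a choice made after the values were seen. Of 15383 genes with both a promoter window and a probe set, 20 held the pair of half-sites 5 bases apart. Of these 20, 3 were called higher (15%) and 1 lower (5%), against 3.56% and 2.39% of the 15383. Their median log2 difference was 0.08, against 0.019. TXNIP, on whose rise the family was chosen, was 1 of the 3, so no excess is read from this count. The others were HES1, a repressor in the Notch pathway (0.73 ± 0.12, limma's adjusted p = 0.0180), and TIGD1 (0.42 ± 0.08, adjusted p = 0.0254). HES1 was not called without DMSO replicate 2 or 3 (up to 0.0749), and TIGD1 was not called without SRPIN803 replicate 2 or 3 or DMSO replicate 1 or 3 (up to 0.107). KCTD5 was lower (-0.40 ± 0.07, adjusted p = 0.0162), but not called without DMSO replicate 2 or 3 (up to 0.0751). The pyruvate kinase gene PKLR, a textbook carrier of this element, was at 0.11 ± 0.09 at a level below the median. GTAAACA stood before a start of 500 genes, 5.2% of them called higher and 1.4% lower, against 3.56% and 2.39% of all genes with a window. TXNIP and ARRDC3, on whose rise the family was chosen, are among the 500. A single CACGNG half-site stood before a start of 5871 genes, TXNIP, ARRDC3 and ARRDC4 among them, and 3.68% of these were called higher and 2.81% lower, close to the shares of all genes with a window.

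The genes outside the family whose profile lay nearest to TXNIP and ARRDC3 were found by the root mean square difference over the 6 arrays, after each gene's DMSO mean was subtracted. Each gene entered by its brightest probe set, which for TXNIP was 201010_s_at. Nearest to TXNIP were PDK4, the kinase that restrains pyruvate oxidation (0.34), SLC16A14 of the monocarboxylate transporter family (0.45), GPCPD1, a glycerophosphocholine hydrolase (0.73), and VMP1, an autophagy membrane protein (0.79). ARRDC3 lay at 0.49 from TXNIP, between SLC16A14 and GPCPD1. The other TXNIP probe sets, with log2 differences of 1.79 and 1.65, were not compared in this way. Those differences are nearer to GPCPD1 (1.83) and VMP1 (1.75) than to PDK4 (3.14), so the order given holds for 201010_s_at only. Nearest to ARRDC3 were GPCPD1 (0.25), VMP1 (0.32), the zinc finger gene ZNF844 (0.38) and ANGPTL4, an inhibitor of lipoprotein lipase (0.47). For ARRDC4, added after its values were seen, the nearest were NPPB, the natriuretic peptide B gene (0.06), ZNF709 (0.06), CCNG2, an atypical cyclin linked to cell cycle arrest (0.08), and ZNF627 (0.09). CCNG2 differed by a log2 of 1.12 ± 0.07 and NPPB by 1.13 ± 0.09, close to the 1.08 of ARRDC4. Because the 2 groups set most of each profile, likeness here reflects mainly the size of the difference between groups. The nearest genes need not match it: GPCPD1 and VMP1, named for TXNIP, differed by less than its 2.84.

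**Figure D4:**
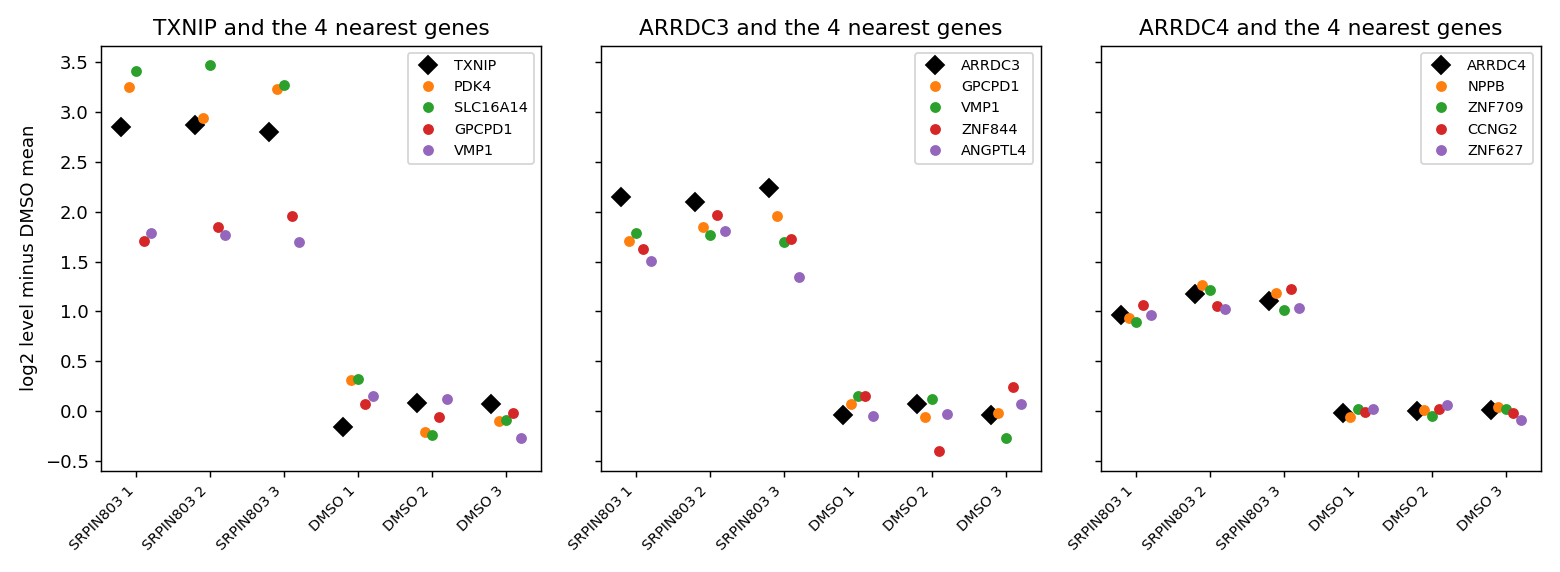
Log2 level minus the gene's DMSO mean (vertical axis) on each of the 6 arrays for TXNIP, ARRDC3 and ARRDC4 (black diamonds) and the 4 genes outside the family nearest to each (circles). TXNIP, read by 201010_s_at, lies below PDK4 and SLC16A14 on all 3 SRPIN803 arrays, and ARRDC4 lies among its 4 neighbours near 1.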

How the data were processed

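Each array gave 1 value per probe set, deposited by the authors on a log2 scale. The submitters' processing notes name RMA. This method corrects background, normalizes between arrays and summarises probes, which compresses changes of dim probe sets and removes differences in total RNA between cells. Which software ran it is not stated in the labels. Values entered the fits unchanged. Once sorted, the 6 arrays were within 0.14 of each other at every rank. Of 54675 probe sets 62 controls were left out, 41091 named 1 gene, 1801 several, and 11721 are unnamed here. No 2 arrays held identical values. The number of arrays limits the precision.

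Groups were compared with limma 3.58.1 (R 4.3.3, lmFit and eBayes, 4 residual degrees of freedom, two-sided, Benjamini-Hochberg), once over 54613 probe sets for the family and once over 19775 genes, each by its brightest probe set, for the lists. Called means an adjusted p under 0.05. With 3 arrays a group the smallest exact permutation p is 0.1, so that test was not used. The family, the gene lists and the tests were chosen with earlier results of these data known. Named were all family probe sets, up to 4 called genes per list by size, or, in lists with no call, the gene of smallest p, and the 4 nearest profiles to TXNIP and to ARRDC3. Others are marked as chosen later. The fits were tested on simulated data with 200 changed probe sets or genes. They recovered 51% of log2 changes of 0.5 over probe sets and 82% over genes. Of changes of 1 they recovered 98% and 100%. False calls were 6.29% and 6.67% of those made, and 0 features were called where nothing changed. The simulated noise was normal and independent, with the spread that the fit itself had estimated. These shares therefore say nothing of array effects or of dependence between replicates. Promoter sequences came from RefSeq (GRCh38.p14), where all 5 genes were found, and were searched on both strands. Alternatives were each array left out, the replicate number as a block, a filter on level, 2 normalizations, a variance trend with robust fit, array weights and the mean of a gene's probe sets. Plots used matplotlib 3.10.9 in Python 3.11.15.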

Additional observations from a re-analysis of the deposited data

How the results depend on the processing

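Over the 12 alternatives that used probe sets the log2 difference of 201010_s_at of TXNIP lay between 2.76 and 2.88, that of ARRDC3 between 2.12 and 2.19 and that of ARRDC4 between 1.04 and 1.14. Probe set 226405_s_at of ARRDC1 reached 0.00083 at its highest and 234607_at 0.017, so their sign is not fixed. With 1 array left out, 4 to 5 family probe sets, 215 to 716 probe sets in all, 324 to 687 genes and 4 to 7 of the listed genes were called, against 5, 1214, 1154 and 11 with all arrays. With only levels above the median, 2667 probe sets and 1904 genes were called, and with a variance trend and robust fit 2997 and 2036. Each of these settings called 16 of the listed genes. With the mean of a gene's probe sets, 7 of the listed genes were called.

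The replicate numbers of the groups were not shown to pair the arrays: deviations of same-numbered arrays from their group means correlated at 0.32, -0.07 and 0.18 for numbers 1, 2 and 3. SRPIN803 replicate 1 correlated best with its own number, and replicates 2 and 3 with another (0.09 and 0.20). With the replicate number as a block 304 probe sets, 689 genes and 9 of the listed genes were called, and SMURF1 (adjusted p = 0.0531) and SMURF2 (0.0731) were not. Probe set 234607_at lay below the median level, and its interval of -0.18 to 0.15 bounds the change in its signal. RMA compresses changes of dim probe sets, so this interval does not bound the change in ARRDC1 RNA.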
